A study of Mus musculus with 24 samples.

Results

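Hsd11b1, Nr3c1, Fkbp5 and Tsc22d3 are genes of glucocorticoid activation, reception and response. They were taken by symbol from the deposited table, where all 4 were found among 16730 genes. The tissue was epididymal white adipose tissue (eWAT) of male littermate mice that all carried Lama4 alleles with exon 3 between loxP sites, on a C57BL/6J background. Lama4 encodes the laminin α4 chain of the adipocyte basement membrane. In Lama4 AKO mice an adiponectin-Cre transgene, active in adipocytes, removes that exon, so the other cells of the tissue keep the floxed gene. The controls were Lama4 fl/fl mice without the knockout. Mice received the breeder chow 5015 or the high-fat diet (HFD) D12451 with 45% fat for 20 weeks and were 24 to 26 weeks old at collection. The study's figure legends give chow feeding from weaning to an age of 24 weeks and HFD feeding from 6 to 26 weeks. Where this holds for the sequenced mice, age and feeding schedule cannot be told apart from diet. Each of the 4 groups (chow fl/fl, chow AKO, HFD fl/fl and HFD AKO) had 6 mice, 24 in all, with 1 library per mouse made by QuantSeq, which reads the 3′ ends of mRNA. The comparisons ask how these genes differ with diet, with genotype, and with both together.

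Glucocorticoids reach fat cells partly as inert keto-steroids, which HSD11B1 reduces to the active hormone inside the cell. The hormone binds the glucocorticoid receptor, encoded by Nr3c1, which waits in the cytoplasm in a complex with HSP90 and moves to the nucleus to switch genes on and off. Fkbp5 and Tsc22d3 are among its classical induced genes. FKBP5 is an HSP90 co-chaperone that lowers the affinity of the receptor for its hormone, and TSC22D3, also called GILZ, is a leucine zipper protein that restrains inflammatory signalling. In adipose tissue this pathway is known for effects on adipocyte differentiation, lipolysis and insulin action.

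All 4 genes lie on the minus strand of different chromosomes (GRCm38). Hsd11b1 (ENSMUSG00000016194) is at chr1:193221634-193264075, Fkbp5 (ENSMUSG00000024222) at chr17:28399094-28517527 and Tsc22d3 (ENSMUSG00000031431) at chrX:140539528-140600659. The Hsd11b1 locus lies within the span of Lamb3, a gene of the opposite strand, but the exons of the pair share 0 bases and Lamb3 had only 19 to 115 counts per library.

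RefSeq promoter windows for GRCm38.p6 were found for 3 of the 4 genes, all but Nr3c1, and were searched for the letters that the receptor is known to bind. The full palindromic glucocorticoid response element, searched on both strands as AGAACA and, 3 bases further on, TGTTCT, was in 0 of the 5 windows of 250 bases before an annotated start (1 for Hsd11b1, 1 for Fkbp5, 3 for Tsc22d3). It was also in only 0.00913% of 32851 promoters of that length. A single arm of the element, AGAACA or TGTTCT, was in 1 Tsc22d3 window and in 16.1% of all promoters. The stretch of that window upstream of every annotated Tsc22d3 exon is shown because it holds this arm, in capitals, 48 bases before the outermost start; it is written 5′ to 3′ on the minus strand, chrX:140600660-140600772.
Tsc22d3: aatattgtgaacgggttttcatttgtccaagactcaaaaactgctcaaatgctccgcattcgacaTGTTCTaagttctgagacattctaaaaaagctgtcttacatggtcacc
The Fkbp5 window, chr17:28486150-28486399 on the minus strand, lies before a RefSeq start inside the GENCODE span of the gene and over no annotated exon, and is shown because it held no arm of the element but other promoter letters. Its capitals mark the E-box CACGTG, 169 bases before the start, and CCAAT or its reverse ATTGG, 93 and 46 bases before the start.
Fkbp5: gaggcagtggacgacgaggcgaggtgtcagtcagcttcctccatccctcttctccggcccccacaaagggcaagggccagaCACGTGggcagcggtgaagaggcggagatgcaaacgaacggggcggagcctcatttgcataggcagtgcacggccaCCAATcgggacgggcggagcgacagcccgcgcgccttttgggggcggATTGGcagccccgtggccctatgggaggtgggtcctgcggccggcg
CCAAT or ATTGG was in 33.8% of all promoters and CACGTG in 6.02%, and the Hsd11b1 window held a CCAAT 72 bases before its start. These are matches of letters and not sites of binding.

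Libraries held 5579590 to 18764516 counts, and all 4 genes were above the expression filter of 1 CPM (counts scaled to library size, with TMM factors) in 3 mice or more, as were 15020 genes in all. Where the Lama4 reads lie relative to the deleted exon was not examined, so the Lama4 counts do not check the genotype labels. Lama4 CPM ran from 41.2 to 196 in chow fl/fl, 64.2 to 133 in chow AKO, 32.4 to 135 in HFD fl/fl and 36.4 to 92.5 in HFD AKO mice. Its log2 fold change of AKO over fl/fl was 0.11 ± 0.34 on chow (adjusted p = 0.980) and -0.69 ± 0.35 on HFD (0.347, edgeR). In the 19 mice defined below it was 0.060 ± 0.28 and 0.14 ± 0.32. The study reported lower Lama4 by quantitative PCR in eWAT of chow-fed AKO mice. These counts do not show that difference, and why was not tested. All 10 adipocyte markers were measured, and 0 of 10 epididymis and testis markers were above the filter, which asks for 3 mice. Of those 10, 3 were in the table, each with most of its counts in 1 library: Lcn5 with 233 of 253 counts, Spink8 with 105 of 127 and Adam7 with 73 of 95. The part of such epididymal transcripts in the results was not tested. The HFD fl/fl mice stood in separate places on the first principal component (45.8% of the variance), with replicates 1, 2 and 5 at 73.5, 48.3 and 48.2 and replicates 3, 4 and 6 at -9.88, -76.1 and -60.4. Of the chow mice, fl/fl replicate 3 (46.8) and AKO replicate 5 (22.1) stood highest in their groups. The HFD AKO mice were at 0.850 to 61.5. The study removed outliers without naming them in its text, and an earlier reading of these data inferred that 5 mice were removed: chow fl/fl replicate 3, chow AKO replicate 5, and HFD fl/fl replicates 3, 4 and 6. Results below are from all 24 mice unless the other 19 mice are named. Leaving out the highest chow mice and the lowest HFD fl/fl mice on this component widens the gap between the diets on it. Because the 5 mice were inferred from the same data, p values from the 19 mice are descriptions and not independent tests.

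Hsd11b1, the activating enzyme, varied more between mice of 1 group than between groups. It had 20.2, 34.0 and 62.0 CPM (lowest, median, highest) in chow fl/fl and 16.01, 39.7 and 50.0 in chow AKO mice. On HFD it had 18.7, 45.0 and 55.9 CPM in fl/fl and 19.8, 27.4 and 32.5 in AKO mice. All group ranges overlapped, and 6 of 6 HFD AKO mice were below the median of the HFD fl/fl and of the chow AKO mice. The standard deviation was 33.2% to 42.9% of the mean in 3 groups and 19.4% in HFD AKO mice. In order of mean log2 CPM the groups were HFD AKO, chow AKO, chow fl/fl and HFD fl/fl, and no neighbours in that order passed a test of their difference.

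Nr3c1 (ENSMUSG00000024431, chr18:39410545-39519421, minus strand), the receptor, was at 71.3, 112.6 and 145.1 CPM in chow fl/fl and at 78.2, 116.3 and 148.4 in chow AKO mice. On HFD it was at 58.6, 99.3 and 126.2 CPM in fl/fl and at 76.5, 78.9 and 84.3 in AKO mice. The HFD AKO mice were nearly equal to one another, with a mean of 79.9 ± 3.07 CPM (SD, n = 6), and 5 of 6 chow AKO mice were above every one of them. The standard deviation there was 3.84% of the mean, against 22.01% to 26.8% in the other groups, and the variance of the values was 1.33 times that from counting alone, against 54.9 to 107 times in the others. The order from the lowest mean was HFD AKO, HFD fl/fl, chow fl/fl and chow AKO, and neighbours did not differ beyond their spread.

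Among the 5 mice named above were the lowest Nr3c1 values of both chow groups, 71.3 CPM in chow fl/fl replicate 3 and 78.2 in chow AKO replicate 5. They also included the 3 highest HFD fl/fl values, 112.1, 123.9 and 126.2 CPM in replicates 3, 4 and 6. The remaining HFD fl/fl mice were at 86.5, 58.6 and 85.5 CPM. How Nr3c1 compared between diets in fl/fl mice therefore differed between the sets of mice, as given below.

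Fkbp5, the co-chaperone, was at 15.1, 22.7 and 33.6 CPM in chow fl/fl and at 22.2, 26.3 and 30.7 in chow AKO mice. On HFD it was at 17.2, 25.8 and 31.2 CPM in fl/fl and at 17.95, 19.6 and 24.1 in AKO mice. Of the HFD AKO mice, 5 of 6 were below every chow AKO mouse, and replicate 6, at 24.1 CPM, overlapped them. Both AKO groups were narrow, with standard deviations of 10.985% and 11.3% of the mean on chow and HFD, against 25.3% and 22.7% in fl/fl mice. Mean log2 CPM was lowest in HFD AKO (4.33 ± 0.15, SD, n = 6), then in chow fl/fl (4.53 ± 0.37) and HFD fl/fl (4.64 ± 0.34), and highest in chow AKO mice (4.74 ± 0.16). Each step between neighbours in that order was smaller than the larger of the SDs of the pair.

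Tsc22d3, the leucine zipper gene, was at 98.8, 120.6 and 147.3 CPM in chow fl/fl and at 98.9, 138.9 and 189.5 in chow AKO mice. On HFD it was at 81.9, 130.9 and 177.5 CPM in fl/fl and at 89.9, 111.5 and 126.4 in AKO mice. Its spread was widest in HFD fl/fl mice, where the standard deviation was 27.3% of the mean and where 2 mice were below and 2 above every chow fl/fl mouse. The order of the groups was that of Fkbp5, with HFD AKO lowest and chow AKO highest, and each step between neighbours was smaller than the larger SD of the pair. For each of the 4 genes HFD AKO had the lowest mean, and 6 of 6 HFD AKO mice were below the chow AKO median and the HFD fl/fl median. With 19 mice HFD fl/fl was lowest for Nr3c1 (77.2 CPM, against 80.2 in HFD AKO) and for Tsc22d3 (103 against 111.8). Of 6 HFD AKO mice, 6 were then below the HFD fl/fl median for Hsd11b1 and Nr3c1, 5 for Fkbp5 and 1 for Tsc22d3.

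**Figure D1:**
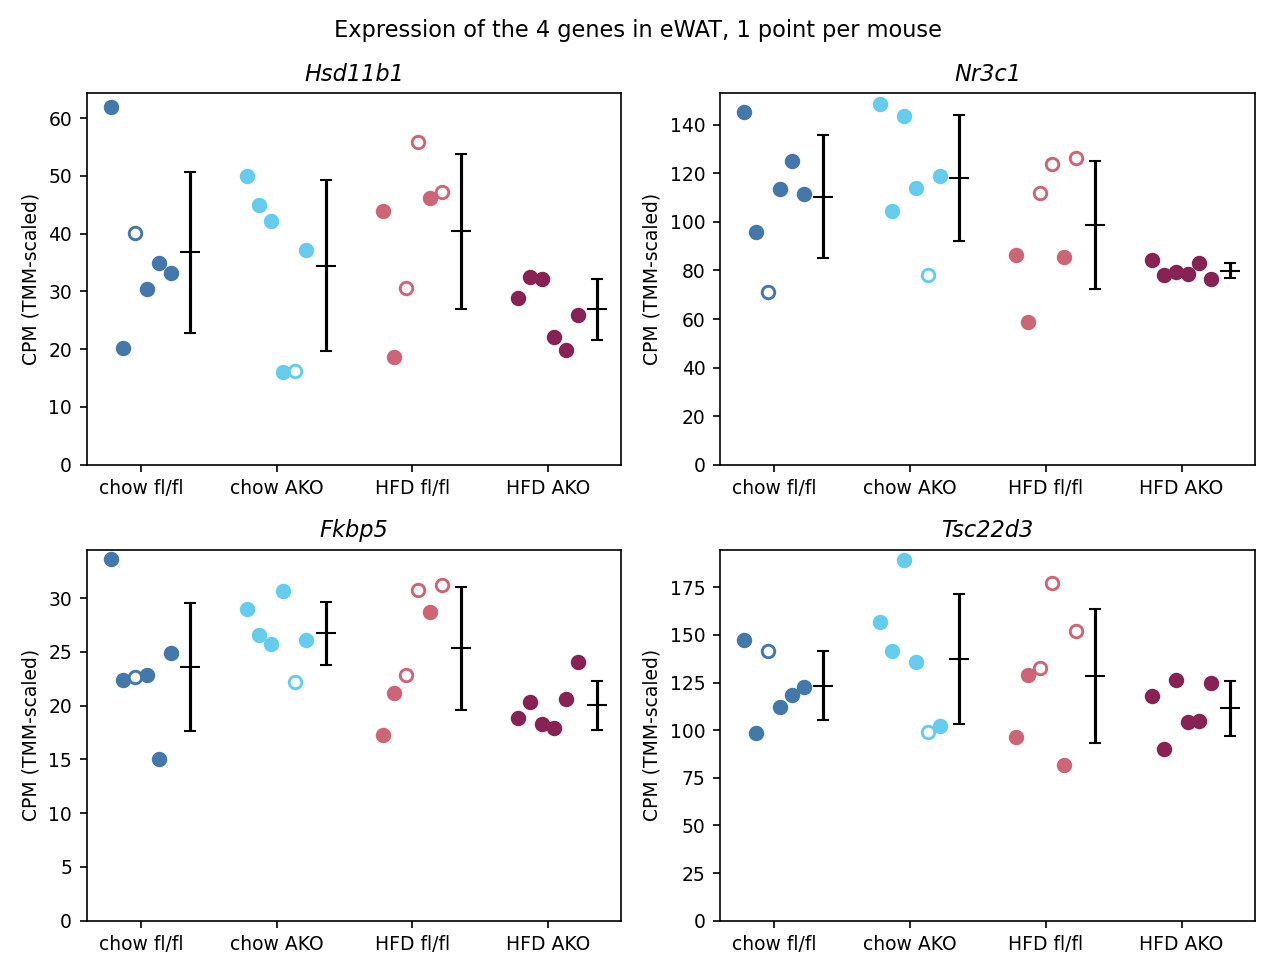
Each panel plots the TMM-scaled CPM (vertical axis, from 0) of 1 gene in the 24 mice, by group on the horizontal axis, with the mean ± SD of the 6 mice in black beside the points and open symbols for the 5 mice inferred to be the study's outliers. The 6 HFD AKO mice lie between 76.5 and 84.3 CPM for Nr3c1, while the other groups spread over 58.6 to 148.4 CPM.

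In fl/fl mice no difference between the diets passed a test for any of the 4 genes. Called, here and below, means that a gene met the study's thresholds: a fold change of 1.5 or more, an unadjusted p no higher than 0.001, and 2 CPM or more on average in whichever group was higher. By these, 0 of the 4 genes were called, beside 0.173% of all genes tested. The log2 fold change of HFD over chow was 0.14 ± 0.29 (SE) for Hsd11b1 and -0.16 ± 0.18 for Nr3c1. It was 0.11 ± 0.16 for Fkbp5 and 0.056 ± 0.18 for Tsc22d3, and the adjusted p of the 4 genes was 0.811 to 0.940 (edgeR quasi-likelihood test, Benjamini-Hochberg over 15020 genes). At an adjusted p of at most 0.05 the count over all genes was 0, and 1354 genes had an unadjusted p under 0.05, none of them one of the 4. The 95% intervals reached from -0.46 to 0.74 for Hsd11b1, from -0.54 to 0.21 for Nr3c1, from -0.22 to 0.44 for Fkbp5 and from -0.31 to 0.42 for Tsc22d3, so differences of these sizes in either direction were not resolved.

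In the 19 mice Nr3c1 was lower on HFD in fl/fl mice by a log2 fold change of -0.62 ± 0.16, with an adjusted p of 0.00790. It was not called, since its unadjusted p of 0.001001 in the quasi-likelihood test was just above the threshold, where 11.8% of all genes were called. At an adjusted p of at most 0.05, 1 of the 4 genes and 29% of all genes passed. The 3 HFD fl/fl mice were then below all 5 chow fl/fl mice for Nr3c1, as 29.5% of genes did not overlap between these groups in one direction or the other. Hsd11b1 had 0.0083 ± 0.35, Fkbp5 -0.083 ± 0.20 and Tsc22d3 -0.22 ± 0.19 on the log2 scale, with adjusted p of 0.389 to 0.988.

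In AKO mice all 4 genes had lower values on HFD, and the difference of Nr3c1 was the best supported. None was called, beside 4.12% of all genes tested. Nr3c1 had a log2 fold change of -0.56 ± 0.18 (95% interval -0.94 to -0.19), or 1.48-fold lower, with an adjusted p of 0.0344. At an adjusted p of at most 0.05 it was the only one of the 4 to pass, beside 22.1% of all genes and 12.9% of all genes in this direction, so 1 of 4 is close to the background. Fkbp5 had -0.42 ± 0.16 (-0.75 to -0.086) with an adjusted p of 0.0610. Tsc22d3 had -0.30 ± 0.18 (adjusted p = 0.199) and Hsd11b1 -0.36 ± 0.29 (adjusted p = 0.359). The groups overlapped for each of the 4 genes, and 6.86% of all genes did not overlap.

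Whether Nr3c1 passed depended on the mouse left out, while its log2 fold change stayed negative. Its adjusted p passed 0.05 in 18 of 24 fits that each left out 1 mouse, with log2 fold changes of -0.67 to -0.49. It missed without chow AKO replicate 1 (0.0854) or replicate 3 (0.0870), the chow AKO mice with the highest Nr3c1. It also missed without HFD AKO replicate 1 (0.0513), 2 (0.0524), 4 (0.0621) or 5 (0.0552). In those last fits the log2 fold change was -0.58 to -0.57, beside -0.56 with all mice. Without chow AKO replicate 5, the chow AKO mouse with the lowest Nr3c1 and the smallest library, the gene was called (adjusted p = 0.0108). In the 19 mice it was called too, at -0.66 ± 0.13 and an adjusted p of 0.00103, beside 15.7% of all genes, and no HFD AKO mouse then overlapped the chow AKO mice, as for 16.8% of all genes.

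For Fkbp5 the same comparison lay at the edge of the threshold. Its adjusted p passed 0.05 in 5 of the 24 fits that left out 1 mouse, those without chow fl/fl replicate 1 (0.0388) or 5 (0.0464), chow AKO replicate 5 (0.0348), HFD fl/fl replicate 1 (0.0434) or HFD AKO replicate 6 (0.0379). The fl/fl mice are in neither group of this comparison. They enter it through the filter, the TMM factors, the spread that the groups share and the adjustment over all genes. Without those fl/fl mice the log2 fold change stayed at -0.42, with an SE of 0.145 to 0.148, beside 0.161 with all mice. In the 19 mice its log2 fold change was -0.47 ± 0.16 with an adjusted p of 0.0301, beside 40.3% of all genes at that threshold. The groups then did not overlap, as for 16.8% of all genes, and chow AKO replicate 5, with the lowest Fkbp5 of its group (22.2 CPM), was left out. Tsc22d3 had -0.38 ± 0.16 (adjusted p = 0.0571) and Hsd11b1 -0.50 ± 0.29 (adjusted p = 0.178) in the 19 mice.

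**Figure D2:**
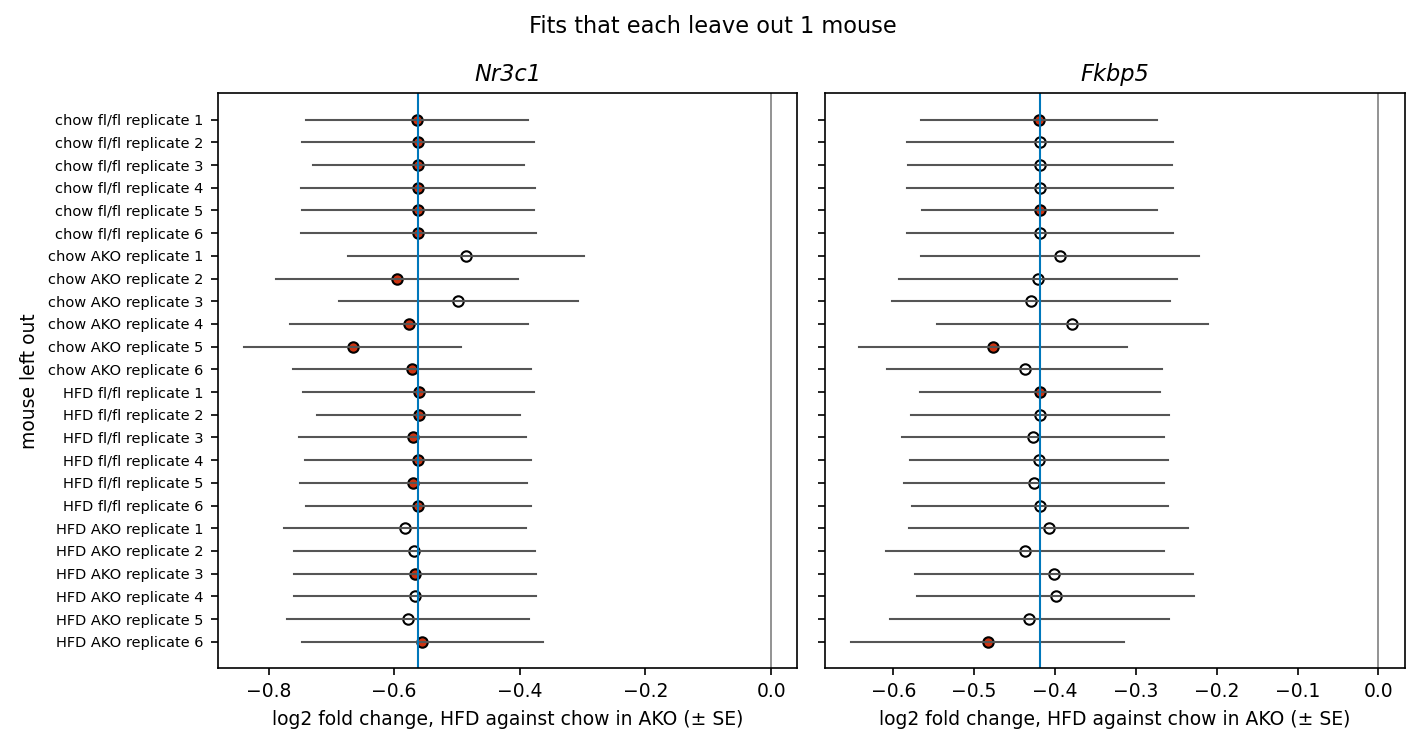
Each row is a fit without 1 mouse, named on the vertical axis, and each point is the log2 fold change of HFD over chow in AKO mice ± SE for Nr3c1 (left) or Fkbp5 (right), filled red where the adjusted p was at most 0.05. The blue line marks the value with all 24 mice, -0.56 for Nr3c1 and -0.42 for Fkbp5, and no fit reaches 0.

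Cell type markers differed in the same comparison, to unlike degrees. At an adjusted p of at most 0.05, 9.13% of all genes were higher and 12.9% lower on HFD there (edgeR). In AKO mice 10 of 10 adipocyte markers had lower values on HFD, 5 of them with an adjusted p of at most 0.05, and their summed level was 15566 to 43016 CPM on chow and 8922 to 25228 CPM on HFD. All 10 macrophage markers had higher values, 3 of them past that threshold, with sums of 2622 to 9461 CPM on chow and 8085 to 13746 CPM on HFD. Of 8 endothelial markers 7 had lower values, 3 past the threshold, with sums of 378 to 786 CPM on chow and 263 to 528 CPM on HFD. Of 6 mesothelial markers 5 had lower values, 2 past the threshold, with sums of 25.7 to 145 CPM on chow and 9.65 to 50.9 CPM on HFD. Of 8 stromal progenitor markers 7 had higher values, with sums of 3659 to 6360 CPM on chow and 5495 to 6675 CPM on HFD. Only 1 of these 8 was past the threshold, which is close to the share of all genes. No marker of the lymphocyte list (8 of 10 higher) or the red blood cell list (5 of 5 lower) passed. No marker of these lists was absent from the table, and the part of these shifts in the values of Nr3c1 and Fkbp5 was not tested. In bulk tissue, fewer cells of a type and less RNA per cell cannot be told apart.

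On HFD the 4 genes had lower values in AKO than in fl/fl mice, but no difference passed. None was called, beside 0.173% of all genes. Hsd11b1 had the widest gap, a log2 fold change of -0.59 ± 0.29 (-1.19 to 0.016, adjusted p = 0.343). Fkbp5 had -0.34 ± 0.16 (-0.67 to -0.0073, adjusted p = 0.331), Nr3c1 -0.31 ± 0.18 (adjusted p = 0.412) and Tsc22d3 -0.20 ± 0.18 (adjusted p = 0.559). At an adjusted p of at most 0.05 the count over all genes was 0, and 2227 genes, Fkbp5 among them, had an unadjusted p under 0.05 (edgeR). In the 19 mice Nr3c1 (0.056 ± 0.15) and Tsc22d3 (0.12 ± 0.18) had the opposite sign and Hsd11b1 had -0.43 ± 0.34 and Fkbp5 -0.16 ± 0.19, so the direction for the receptor and for Tsc22d3 rested on the 3 HFD fl/fl mice named above. The adipocyte marker sum of HFD fl/fl mice was 9258 to 49072 CPM, and 10 of 10 of its genes had lower values in HFD AKO mice with 24 mice but 3 of 10 with 19; its part in these differences was not tested.

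On chow no difference between the genotypes passed a test for any of the 4 genes. None was called, beside 0.113% of all genes. The log2 fold change of AKO over fl/fl was -0.090 ± 0.29 for Hsd11b1, 0.096 ± 0.18 for Nr3c1, 0.19 ± 0.16 for Fkbp5 and 0.16 ± 0.18 for Tsc22d3. The adjusted p was 0.952 to 0.981, and across all genes 0 passed an adjusted p of 0.05 and 878 had an unadjusted p under 0.05 in edgeR. The 95% intervals of Nr3c1 (-0.28 to 0.47), Fkbp5 (-0.15 to 0.52) and Tsc22d3 (-0.21 to 0.52) did not reach a 1.5-fold difference, while that of Hsd11b1 (-0.69 to 0.51) did in the lower direction. Hsd11b1 had the opposite sign in the 19 mice (0.078 ± 0.31), Nr3c1 had 0.090 ± 0.14, Fkbp5 0.22 ± 0.17 and Tsc22d3 0.28 ± 0.16, with adjusted p of 0.661 to 0.964.

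Whether the diet difference itself depended on genotype was tested as an interaction, the diet difference in AKO minus that in fl/fl mice. It was negative for the 4 genes, at -0.50 ± 0.41 for Hsd11b1, -0.40 ± 0.26 for Nr3c1, -0.52 ± 0.23 for Fkbp5 and -0.36 ± 0.25 for Tsc22d3, on the log2 scale. None was called, beside 0.386% of all genes, and the lowest adjusted p was 0.282, for Fkbp5. The diet difference of Nr3c1 in AKO mice is therefore not shown to differ from that in fl/fl mice (adjusted p = 0.422). In the 19 mice the interaction was -0.034 ± 0.20 for Nr3c1, -0.38 ± 0.26 for Fkbp5, -0.51 ± 0.46 for Hsd11b1 and -0.16 ± 0.25 for Tsc22d3.

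Averaged over both genotypes the diet difference was -0.36 ± 0.13 for Nr3c1 (adjusted p = 0.0602), -0.16 ± 0.11 for Fkbp5, -0.12 ± 0.13 for Tsc22d3 and -0.11 ± 0.21 for Hsd11b1. None of the 4 was called, beside 2.25% of all genes, and in the 19 mice Nr3c1 was called at -0.64 ± 0.10 (adjusted p = 8.26e-05), beside 21.4% of all genes. Tsc22d3 had -0.30 ± 0.12 there and passed an adjusted p of 0.05 (0.0460), as 51.9% of all genes did, while Fkbp5 had -0.27 ± 0.13 (adjusted p = 0.0822) and Hsd11b1 -0.25 ± 0.23. Averaged over both diets the genotype difference was -0.34 ± 0.21 for Hsd11b1 and between -0.10 and -0.023 for the other 3 genes, with 0 called, beside 0.0333% of all genes. The latter 3 had the opposite sign in the 19 mice, at 0.073 ± 0.10 for Nr3c1, 0.030 ± 0.13 for Fkbp5 and 0.20 ± 0.12 for Tsc22d3, and Hsd11b1 had -0.18 ± 0.23, with adjusted p of 0.741 to 0.974.

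**Figure D3:**
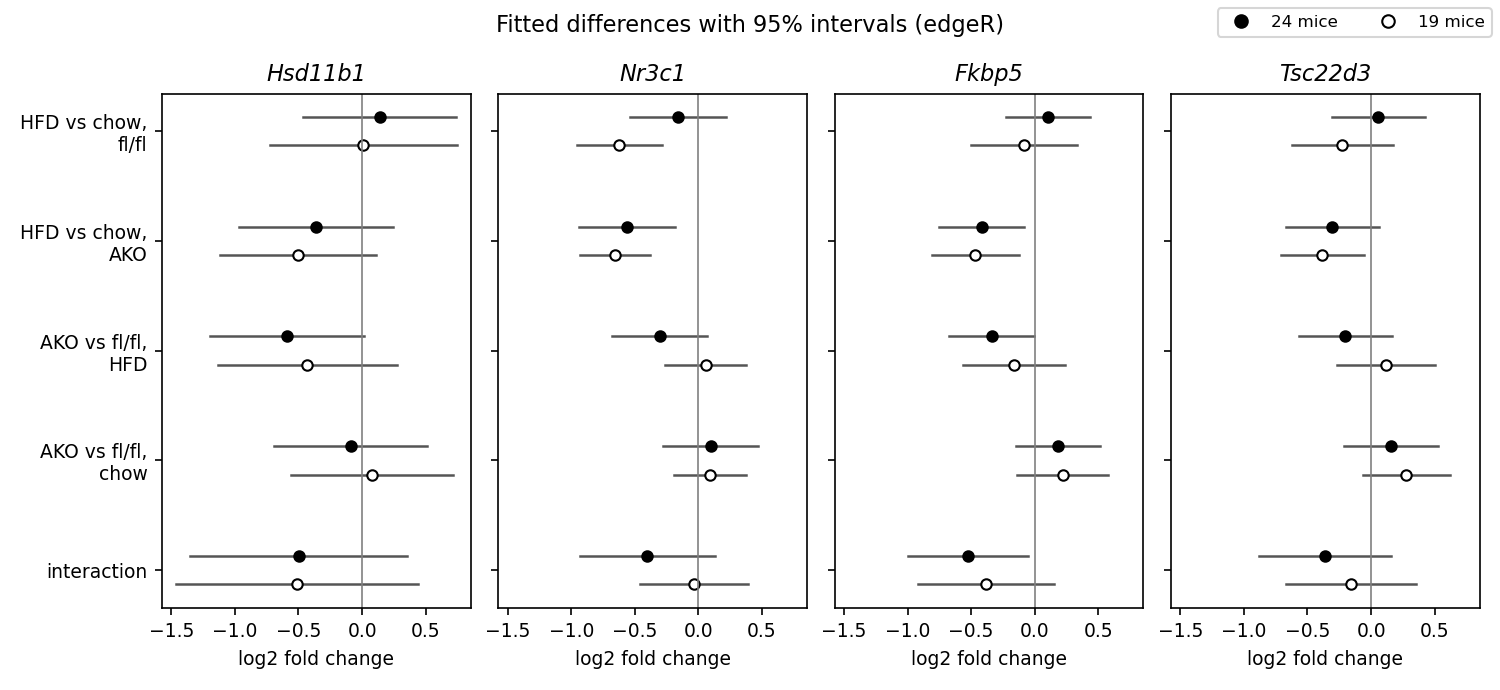
Each panel plots the log2 fold changes of 1 gene (horizontal axis) with 95% intervals in 5 comparisons (vertical axis), filled for all 24 mice and open for the 19 mice. For Nr3c1 the diet difference in fl/fl mice moves from -0.16 to -0.62 between the sets of mice, while that in AKO mice is -0.56 and -0.66.

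The deviations of the 24 mice from their group means had positive correlations for all 6 pairs of the 4 genes, none of which passed a test, and in the 19 mice 5 of the 6 were at 0.18 or less. Over the 24 mice, after the group mean of log2 CPM was removed, the receptor and the activating enzyme had the highest Pearson's r, 0.58 (Spearman's rho 0.49), with Benjamini-Hochberg adjusted permutation p values of 0.0823 for r and 0.0614 for rho. The r of this pair was 0.50 (adjusted permutation p = 0.0991) without chow AKO replicate 4 and HFD fl/fl replicate 2, the mice farthest from the median of Hsd11b1, and 0.71 (adjusted permutation p = 0.0554) in the 19 mice. Nr3c1 and Tsc22d3 had r = 0.46 and rho = 0.58 (adjusted permutation p = 0.129 and 0.0614). That relation rested on which mice entered, since r was 0.79 (adjusted permutation p = 0.00192) without chow fl/fl replicate 3 and HFD fl/fl replicate 2 and 0.18 (0.746) in the 19 mice.

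The other 4 pairs had r of 0.34 to 0.40 and rho of 0.38 to 0.51. For Hsd11b1 with Fkbp5, r was 0.34 and rho 0.44 (adjusted permutation p = 0.129 and 0.0655), and r was 0.43 without the same pair of mice and 0.16 in the 19 mice. For Hsd11b1 with Tsc22d3, r was 0.38 and rho 0.51 (0.129 and 0.0614, permutation), and r was 0.51 without them and 0.12 in the 19 mice. The receptor with Fkbp5 had r = 0.40 and rho = 0.38 (adjusted permutation p = 0.129 and 0.118), and r = 0.40 without its 2 farthest mice and 0.14 in the 19 mice. The induced genes Fkbp5 and Tsc22d3 had r = 0.37 and rho = 0.38 (0.129 and 0.118, permutation), and r = 0.37 without their 2 farthest mice and 0.084 in the 19 mice. In these 6 comparisons, each with 100000 permutations within groups, the values share libraries and their depth.

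**Figure D4:**
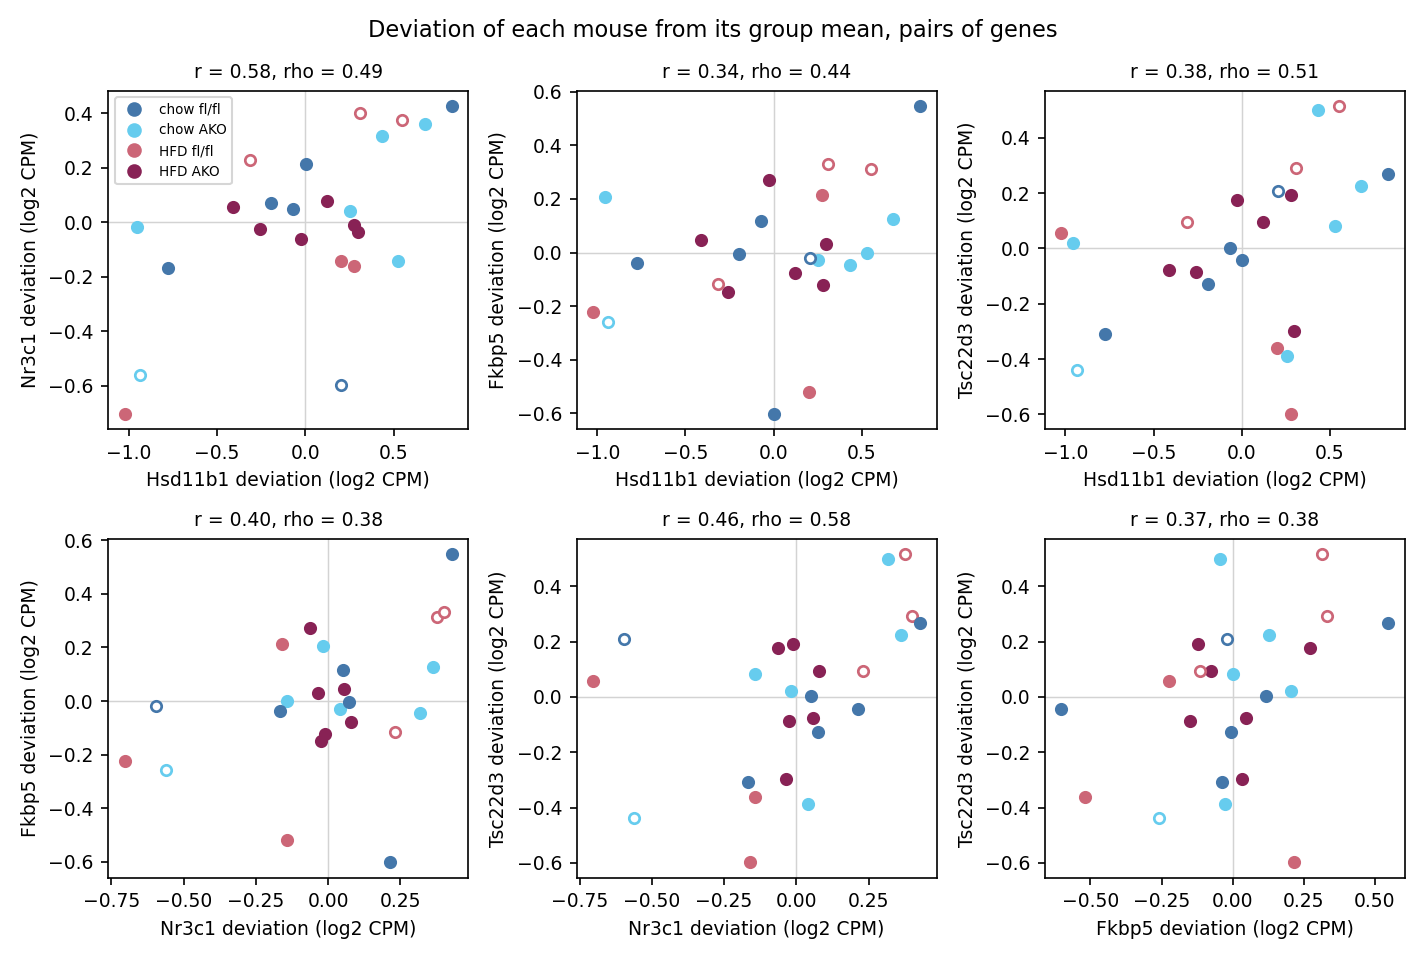
Each panel plots, for 1 pair of genes, the deviation of each of the 24 mice from its group mean in log2 CPM, coloured by group, with open symbols for the 5 mice inferred to be the study's outliers. All 6 pairs have positive r, from 0.34 to 0.58, and no pair passed an adjusted permutation p of 0.05.

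The genes whose deviations were most like those of a member were found among 11710 genes with a symbol and a mean of at least 2 CPM. Hsd11b1 was most like Lonp2 (r = 0.91), a peroxisomal protease, Phyh (0.90), a peroxisomal hydroxylase of phytanic acid breakdown, and Setd7 (0.90), a lysine methyltransferase. Among the genes most like Nr3c1 were Tbc1d32 (0.93) and Gphn (0.92), which encodes gephyrin. In the 19 mice these genes ranked 164 and 276 for Nr3c1, so the order was that of a particular set of mice. Fkbp5 was most like Caskin2 (0.83), Chrd (0.82), a BMP antagonist, and Smad6 (0.81), an inhibitory SMAD. Tsc22d3 was most like Tmed8 (0.93), Lipt1 (0.91) and Mecr (0.91), of which Lipt1 and Mecr act in mitochondrial lipoic acid and fatty acid synthesis. These r values over 24 mice are descriptions, and the libraries share depth and composition.

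The rest of the pathway was followed in lists of 88 other genes, of which 80 were above the filter. In fl/fl mice 0 of the 80 were called between the diets in edgeR, beside 0.173% of all genes. An unadjusted p under 0.05 was found for 9 of the 80, beside 9.01% of all genes, which is close to the background. In AKO mice 5 were called, 2 higher and 3 lower on HFD, beside the 4.12% of all genes, and 14 passed an adjusted p of 0.05, 5 higher and 9 lower, beside the 22.1%. Of the 79 tested in the 19 mice, 11 were called in fl/fl mice, 8 higher and 3 lower, and 9 in AKO mice, 3 higher and 6 lower, beside 11.8% and 15.7% of all genes. At an adjusted p of 0.05, 25 passed in each genotype, beside 29% and 40.3% of all genes.

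Of 16 genes of corticosteroid metabolism and transport, 10 were above the filter. In AKO mice on HFD 3 rose and 1 fell at an adjusted p of at most 0.05, beside 9.13% and 12.9% of all genes (edgeR). The median log2 fold change of the 10 was -0.097, beside -0.0031 for all genes. Cyp11a1, the enzyme that starts steroid synthesis from cholesterol, rose from a mean of 0.783 to 7.43 CPM (log2 fold change 3.37 ± 0.71, adjusted p = 0.0124), and it had 1.87 ± 0.66 in fl/fl mice (adjusted p = 0.448). Of the list's other synthesis genes, Star had -0.12 ± 0.44 in AKO mice (adjusted p = 0.855, edgeR) and Cyp21a1 was below the filter. Cyp11b1, Cyp11b2 and Hsd3b1 were not found by symbol among the 16730 genes counted, of which the lowest had 72 counts over all libraries. Whether they had fewer reads than that is not shown, and corticosteroid synthesis was not tested. Cbr1, a carbonyl reductase, rose by 0.54 ± 0.18 and Srd5a3, a steroid reductase family member, by 0.50 ± 0.18. Abcb1a, an efflux transporter of glucocorticoids, fell by 0.84 ± 0.29 on the log2 scale, and its close paralog Abcb1b had -0.55 ± 0.25 (adjusted p = 0.108). H6pd, which supplies the cofactor of HSD11B1 in the endoplasmic reticulum, had -0.65 ± 0.31 (adjusted p = 0.125), in the direction of Hsd11b1 (-0.36), and Hsd11b2, the inactivating enzyme, had a group mean of only 0.856 to 1.34 CPM. Cyp11a1 was called in fl/fl mice too when the 19 mice were used (2.61, adjusted p = 0.00241), and in AKO mice Abcb1b was called (-0.65, adjusted p = 0.00504) and H6pd passed (-0.71, adjusted p = 0.0492). Abcb1b (-0.75, adjusted p = 0.00978) and H6pd (-1.03, 0.0337) also passed in fl/fl mice among the 19 (edgeR), while Abcb1a (-0.74, 0.0947) did not.

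Of 16 receptors and chaperones of the receptor complex, 0 rose and 1 fell at that adjusted p in AKO mice on HFD, beside 9.13% and 12.9% of all genes. Their median was -0.017. St13, the HSP70-interacting protein of receptor assembly, fell from a mean of 381 to 209 CPM (-0.87 ± 0.21, adjusted p = 0.0164) and was called. Hspa4 had 0.35 ± 0.13 (adjusted p = 0.0510) and Ahsa1, an activator of HSP90, had 0.46 ± 0.17 (adjusted p = 0.0567), both opposite in sign to Fkbp5. Fkbp4, the co-chaperone that counters FKBP5, had 0.29 ± 0.15 (adjusted p = 0.142), and Nr3c2, the mineralocorticoid receptor, had -0.57 ± 0.41 (adjusted p = 0.295). In fl/fl mice low p values of this list belonged to Ppp5c (0.42 ± 0.17, adjusted p = 0.486) and Hspa8 (0.40 ± 0.19, adjusted p = 0.539). Both were called there in the 19 mice, Ppp5c at 0.82 (adjusted p = 0.00168) and Hspa8 at 0.87 (0.00151), and Ahsa1 (0.54, adjusted p = 0.00335) and Hspa4 (0.40, 0.0266) then passed in AKO mice. St13 (-0.63, adjusted p = 0.0196) and Nr3c2 (-1.73, 0.00445) were lower on HFD in fl/fl mice among the 19 (edgeR).

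Of 16 coregulators of the receptor, 0 rose and 2 fell at that adjusted p in AKO mice on HFD, beside 9.13% and 12.9% of all genes. Their median was 0.12. Nrip1, a corepressor of nuclear receptors in adipocytes, fell by 1.21 ± 0.40 on the log2 scale (adjusted p = 0.0362), and Smarcd1, a subunit of the SWI/SNF remodeller, by 0.50 ± 0.16 (adjusted p = 0.0353). In fl/fl mice Ehmt2 had 0.54 ± 0.20, Carm1 0.31 ± 0.15 and Hdac3 0.36 ± 0.18, with adjusted p of 0.448 to 0.569. These 3 passed in fl/fl mice among the 19, Ehmt2 at 1.02 (adjusted p = 0.000782, called), Carm1 at 0.59 (0.0161) and Hdac3 at 0.68 (0.0160). Nrip1 was lower on HFD there too (-1.42, adjusted p = 0.00754, called, edgeR), while Smarcd1 had -0.15 (0.554).

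Of 40 further genes known to be induced by glucocorticoids, 38 were above the filter. In AKO mice on HFD 2 rose and 5 fell at an adjusted p of at most 0.05, beside 9.13% and 12.9% of all genes (edgeR). The falls are thus close to the background. Of the 38, 12 had higher and 26 lower values, with a median of -0.21. Over all genes 7551 of 15020 had lower values, with a median of -0.0031. Pik3r1, the regulatory subunit of phosphoinositide 3-kinase, fell from a mean of 161 to 48.9 CPM (-1.72 ± 0.35, adjusted p = 0.0124), and Cdkn1a, the cell cycle inhibitor p21, from 318 to 154 CPM (-1.04 ± 0.24, adjusted p = 0.0153). Foxo3, a forkhead factor, rose from 36.2 to 71.3 CPM (0.98 ± 0.25, adjusted p = 0.0186), and those 3 were called.
Agt, the angiotensin precursor, fell by 2.22 ± 0.67 on the log2 scale, Cd163, a macrophage scavenger receptor, by 1.02 ± 0.35 and the metallothionein Mt2 by 0.69 ± 0.21, while Anxa1, an anti-inflammatory lipid-binding protein, rose by 0.96 ± 0.33 (adjusted p of 0.0278 to 0.0436). Most of the 38 genes did not pass in the 24 mice, and 5 well-known targets among these are given. Zbtb16 had -1.84 ± 0.70 (adjusted p = 0.0599), Klf9 -0.76 ± 0.33 (0.0947), Per1 -0.36 ± 0.25 (0.269), Dusp1 0.35 ± 0.14 (0.0661) and Sgk1 0.22 ± 0.21 (0.428). These 5 were named after their values were seen. Among the 19 mice 3 of them passed between the AKO groups, Zbtb16 at -2.01 (adjusted p = 0.00888), Klf9 at -0.78 (0.0299) and Dusp1 at 0.44 (0.0122). In fl/fl mice the lowest p belonged to Cebpb (0.84 ± 0.23, adjusted p = 0.433), Mt1 (-0.54 ± 0.20, 0.448) and Mt2 (-0.54 ± 0.21, 0.486), and in the 19 mice Cebpb was called at 1.16 (adjusted p = 0.00386) and Mt2 passed at -0.83 (0.0215), while Mt1 had -0.41 (0.256). Zbtb16 (-2.47, adjusted p = 0.0180), Agt (-2.55, 0.0160) and Pik3r1 (-1.61, 0.000506, called) were also lower on HFD in fl/fl mice among the 19 (edgeR). Klf9 (-0.85, 0.0659), Cdkn1a (-0.50, 0.0635) and Cd163 (-0.26, 0.671) did not pass there.

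**Figure D5:**
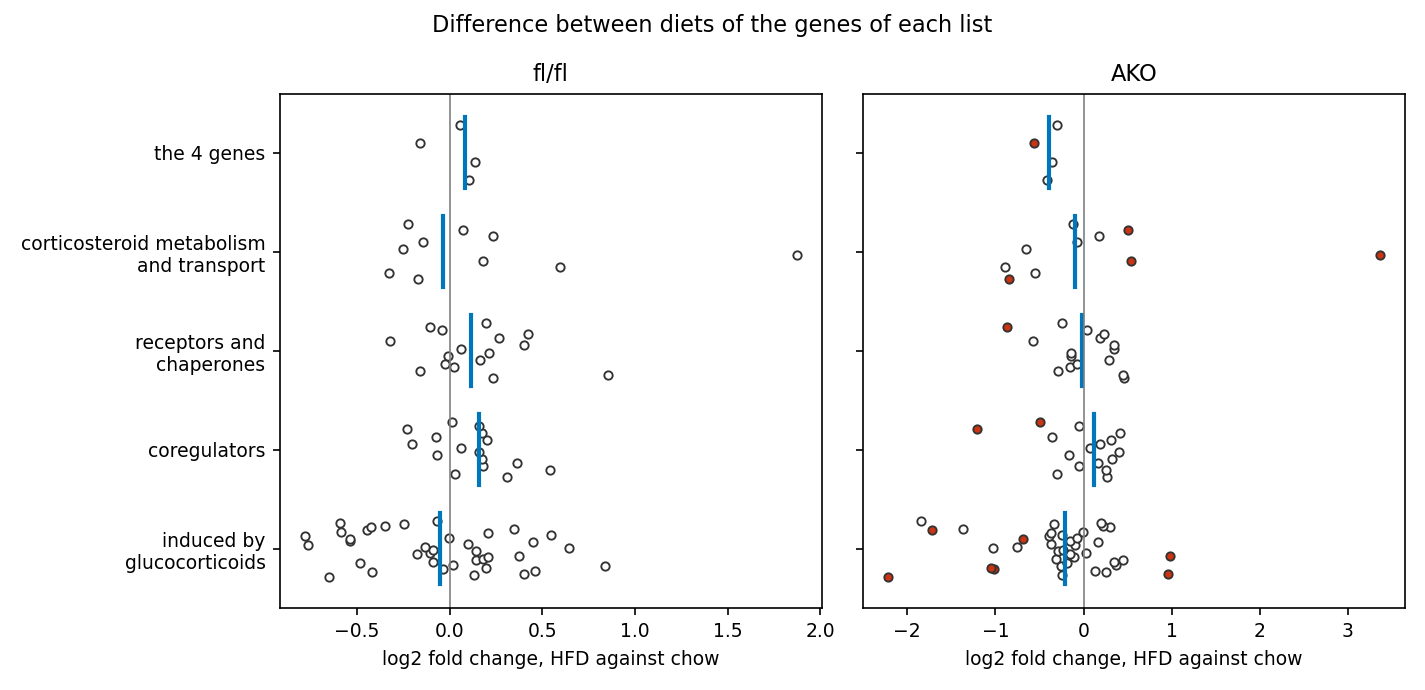
Each point is the log2 fold change of HFD over chow (horizontal axis) of 1 gene in fl/fl (left) or AKO mice (right), by list on the vertical axis, filled red where the adjusted p was at most 0.05, with a blue line at the median of the list. In fl/fl mice no gene is filled, and in AKO mice the 4 genes lie between -0.56 and -0.30 with Nr3c1 filled.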

How the data were processed

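The deposited files were a table of raw read counts per gene and a second table in which each count had been divided by a DESeq2 size factor, a depth-scaled signal. The authors made the counts from 50-base QuantSeq reads with the Lexogen pipeline (V1.8.8) and Rsubread. The submitters' processing notes name GRCm38 or mm10, R 4.0.3 and DESeq2 1.30. The signal table gave the symbols and positions, and its values equalled counts over size factor to within 6.98e-10. Groups came from the labels. The members, lists and tests were chosen with earlier results of these data known.

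Counts were tested with edgeR 4.0.16 (R 4.3.3), TMM factors, a filter of 1 CPM in 3 mice or more and 1 coefficient per group in 1 quasi-likelihood fit of 24 mice, adjusted by Benjamini-Hochberg over 15020 genes. This test was run on simulated counts, drawn independently with the same dispersion for every gene and group. The fold changes planted in them were larger than those of the 4 genes. The simulation therefore does not show how the test behaves with the unequal spread and small differences found here. Named genes were the members, Lama4, genes of the 4 lists that were called or among the 3 lowest p of a diet comparison, and the 3 genes most correlated with each member; others were named after their values were seen, and some genes that the rule names are not reported here. Alternatives were limma-voom (limma 3.58.1), DESeq2 1.42.0, RLE factors, other filters, only the groups compared, a replicate block, an adjusted p threshold, 19 mice and leaving out each mouse. Replicate numbers did not pair the mice, so the block was no part of the design. Whether libraries came from separate extractions is not given in the sources used here.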

Additional observations from a re-analysis of the deposited data

Results flagged for a closer look

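Of the 20 sets of 6 mice examined for a single distant value (4 genes and Lama4 in 4 groups), 1 held one: Lama4 in HFD AKO replicate 6 was the highest of its group at 92.5 CPM, and its gap to the next mouse was 0.689 of the range of the group. Chance gives such a value in about 1 in 20 sets. In none of the 16 sets of the 4 glucocorticoid genes did a mouse stand apart in this way.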

How the results depend on the processing

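The main limit is which mice enter. With 19 mice, genes called between the diets went from 26 to 1750 in fl/fl and from 619 to 2332 in AKO mice, and between genotypes from 26 to 84 on HFD and from 17 to 31 on chow. Of the 80 pathway genes (79 with 19 mice) called, there were 0 and then 11 in fl/fl and 5 and then 9 in AKO mice. The shares of all genes called were 0.173% and then 11.8% in fl/fl, and 4.12% and then 15.7% in AKO mice. The diet difference then had the opposite sign in fl/fl mice for Fkbp5 (-0.083) and Tsc22d3 (-0.22), as did the genotype difference on HFD for Nr3c1 (0.056) and Tsc22d3 (0.12), on chow for Hsd11b1 (0.078) and averaged over diets for Nr3c1 (0.073), Fkbp5 (0.030) and Tsc22d3 (0.20). Nr3c1 became called between the diets in AKO mice (-0.66) and averaged (-0.64), so members called went from 0 to 1 in both comparisons, and an adjusted p threshold of 0.05 also gave 1 in AKO mice (Nr3c1, -0.56).

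Leaving out each mouse gave 0 to 1 members called between the diets in AKO mice, with Nr3c1 at -0.67 to -0.49 there. Values near 0 crossed it: Hsd11b1 between genotypes on chow (-0.23 to 0.12; positive at 0.12, 0.060 and 0.057 without chow fl/fl replicate 1 and chow AKO replicates 4 and 5), Nr3c1 there (-0.0031 to 0.20), Tsc22d3 between the diets in fl/fl mice (-0.060 to 0.17; also -0.0014 without chow fl/fl replicate 2) and Tsc22d3 between genotypes averaged over diets (-0.080 to 0.034; positive at 0.0052, 0.011, 0.0076, 0.034 and 0.0039 in 5 fits). The r of Nr3c1 and Tsc22d3 was 0.79 without the 2 mice farthest from the median. The causes were not tested.

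With limma-voom, DESeq2, RLE factors, no filter, filterByExpr and only the 2 groups compared, every member kept its sign and its side of the study's criteria in the 4 pairwise comparisons and the interaction (the last setting has no interaction). The adjusted p of Nr3c1 between the diets in AKO mice was 0.0100 to 0.0502 over these and the block, and that of Fkbp5 0.0128 to 0.0865. Replicate numbers did not pair the mice: over 36 same-numbered pairs the correlation of deviations was -0.534 to 0.714, above 0.1 in 15. With the replicate block Nr3c1 had -0.54 (adjusted p = 0.0502), and no call by the study's criteria changed.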
